A study of Oreochromis niloticus and Pundamilia nyererei with 6 samples.

Results

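The abundant spliced transcripts of the liver were described in 2 cichlid fishes, Oreochromis niloticus (ON), the Nile tilapia, and Pundamilia nyererei (PN), a haplochromine of Lake Victoria. The groups were livers of 3 tank-reared ON males, of about generation 93 and of Manzala (Egypt) origin, and livers of 3 tank-reared PN males of generation 1. Total liver RNA of each fish, depleted of ribosomal RNA, had been sequenced as 1 stranded library with paired reads of 75 bases, and no fish had received a treatment. Each species had its own merged set of transcripts on its own genome, ASM185804v2 for ON and PunNye1.0 for PN, so species, genome and annotation cannot be told apart. The members were chosen by their abundance. A transcript was a member when it had a strand, 4 to 39 exons and at least 100 FPKM (fragments per kilobase of transcript, scaled to the mapped fragments of the library) in all 3 livers of its species. In ON, 335 of 41456 transcripts were members, which was 1.42% of the 23555 stranded transcripts with 4 to 39 exons. In PN, 365 of 45966 transcripts were members, which was 1.77% of 20629 such transcripts. The remaining 23220 ON and 20264 PN transcripts of that class are called the other transcripts here.

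Most genes of a vertebrate are broken into exons, and the introns between them are transcribed together with the exons and then cut out by the spliceosome. The genomic span of a transcript, from the first to the last base of its gene model, is therefore the stretch the polymerase has to copy, and the transcript length is what remains after splicing. The liver makes a small number of mRNAs in very large amounts, chiefly those of proteins secreted into the blood plasma, such as apolipoproteins, fibrinogen and components of complement. In human and in the nematode, highly expressed genes tend to have short introns. The rows of the tables carry no gene symbol, so members are named by their transcript identifier and position, and neither their genes nor marker genes of liver were checked.

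The quotient of coverage and FPKM put the libraries at 1978 to 1997 Mb of aligned bases in ON and 1692 to 1943 Mb in PN. The ON values exceed the bases held by the paper's mean number of read pairs per liver library. They are therefore a scale and not a count of sequenced bases, and the reason was not tested. At these depths 100 FPKM stood for a mean coverage of 169 to 200 reads per base. The thinnest member in any library rested on the equivalent of 527 read pairs, for a relative counting error of 4.36% (1 standard error), and the median member on 5879 to 7603. Counting error was thus small beside the differences among fish given below, although it covers counting only. The tables do not show whether the 3 fish of a species were related, and the spread among them may hold both biological and technical parts.

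The members carried about as much of the summed FPKM as all remaining transcripts of their species together, whatever their strand or exon number. They took 42.9, 50.5 and 49.3% of the summed FPKM in ON fish 1, 2 and 3 (47.6 ± 4.1%, SD, n = 3), and 53.7, 47.5 and 51.3% in PN fish 1, 2 and 3 (50.9 ± 3.1%, SD, n = 3). Within the stranded transcripts with 4 to 39 exons, their share was 79.3 ± 0.3% in ON and 76.9 ± 1.5% in PN (SD, n = 3 each). Of the aligned bases so derived, 43.9, 45.2 and 45.4% fell on members in ON fish 1, 2 and 3 (44.8 ± 0.8%, SD, n = 3). In PN fish 1, 2 and 3 the values were 52.9, 46.2 and 49.2% (49.4 ± 3.4%, SD, n = 3). By this share each PN fish lay above each ON fish, but it was not held out and got no test. These shares follow in part from the choice of members. To give a share that the choice did not use, members were chosen on 2 fish and measured in the third. The share of summed FPKM was then 43.2, 50.6 and 49.5% in the 3 ON fish and 54.1, 47.8 and 51.5% in the 3 PN fish. ON minus PN was -3.38 percentage points, and a two-sided exact permutation test gave p = 0.4, where 3 against 3 fish cannot go below 0.1. The 3 held-out values of a species share the fish used to choose, so they are not independent as the test assumes. ON fish 1 had the lowest share of summed FPKM of all 6 livers and PN fish 1 the highest. The ranges of the species overlapped in this share, unlike in the share of aligned bases. In whole tissue, here and below, fewer cells of a type and less RNA per cell cannot be told apart.

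Most transcripts that were abundant in 2 fish were abundant in the third as well. Of the transcripts chosen on 2 ON fish, 90.1, 96.5 and 95.7% also had at least 100 FPKM in fish 1, 2 and 3 when that fish was the one held out (94.1 ± 3.5%, SD, n = 3). The same was true of 90.1, 91.7 and 94.8% in PN (92.2 ± 2.4%, SD, n = 3). The difference, ON minus PN, was 1.89 percentage points (two-sided exact permutation test, p = 0.5). Here too the 3 values of a species share fish and are not independent, which limits the test. In every case the transcripts that passed again were the 335 ON or the 365 PN members. The percents thus restate the counts of the rule, and the test cannot decide whether the species differ. Those that did not pass were the 64 ON and 93 PN transcripts that reached 100 FPKM in exactly 2 fish. A further 94 ON and 90 PN transcripts reached it in exactly 1 fish.

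The abundance of members ran over more than 2 orders of magnitude. The median of their mean FPKM was 491 in ON and 490 in PN. A mean of at least 1000 FPKM was found for 71 ON and 84 PN members, and a mean of at least 10000 FPKM for 5 ON and 2 PN members. The 10 members of each species with the highest mean FPKM held 35.0, 30.3 and 33.6% of the members' summed FPKM in ON fish 1, 2 and 3. In PN fish 1, 2 and 3 they held 31.5, 27.6 and 29.4%.

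The 5 highest ON members all had 4 exons, the smallest number that the rule admits. The first, mRNA24718, lies on the plus strand of NC_031979.1 from 30441132 to 30443193 (ASM185804v2), and its exons sum to 1206 bases of a span of 2062 bases. It had 25474, 17597 and 24946 FPKM in ON fish 1, 2 and 3, so that fish 2 was the low one. The second, mRNA2125, lies on NC_031978.1 from 17991050 to 18001683, with 587 exonic bases in a span of 10634 bases. It had 21176, 19117 and 23906 FPKM, a 1.25-fold range among the 3 fish, beside 1.29-fold in the median ON member. Its locus, meaning the stranded transcripts whose spans overlap on one strand, held 5 transcripts, and its 2 members took 28.0% of the locus FPKM. Most of the remainder lay in mRNA2123, a transcript of 2 exons and 299 bases at 47736, 40618 and 50801 FPKM, which the exon rule left out.

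Both of the following ON members lie close together on the minus strand of NC_031976.1. mRNA19712, from 13976675 to 13978520, had 13495, 17280 and 15392 FPKM in ON fish 1, 2 and 3. mRNA19717, from 13986858 to 13988136, had 12853, 13032 and 14448 FPKM. Each has a neighbour that is itself a member, mRNA19711 at 1268, 2504 and 1656 FPKM and mRNA19718 at 251, 170 and 263 FPKM. Neighbours in these pairs differed widely in level while lying within 8005 and 6935 bases. The fifth, mRNA19640, lies on the plus strand of NC_031976.1 from 12232905 to 12234040 and had 10170, 11994 and 8198 FPKM.

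In PN the highest members had from 4 to 25 exons. mRNA30554, on the minus strand of NW_005187583.1 from 123521 to 125642 (PunNye1.0), has 4 exons and 1294 exonic bases in a span of 2122 bases. It had 32172, 19339 and 32239 FPKM in PN fish 1, 2 and 3, with PN fish 2 the low one. mRNA19040, on NW_005187468.1 from 2698897 to 2700106, also has 4 exons and had 16007, 12273 and 15533 FPKM. The next members are built of many more exons. mRNA27066, on NW_005187535.1 from 1478560 to 1491260, has 25 exons in 12701 bases and had 7570, 11994 and 9224 FPKM. mRNA4267, on NW_005187405.1 from 5631154 to 5638416, has 17 exons and had 11096, 13280 and 4358 FPKM. mRNA41841, on NW_005188038.1 from 39895 to 46248, has 12 exons and had 11382, 4614 and 10324 FPKM. In mRNA4267 fish 3 and in mRNA41841 fish 2 stood well below the other two.

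**Figure D1:**
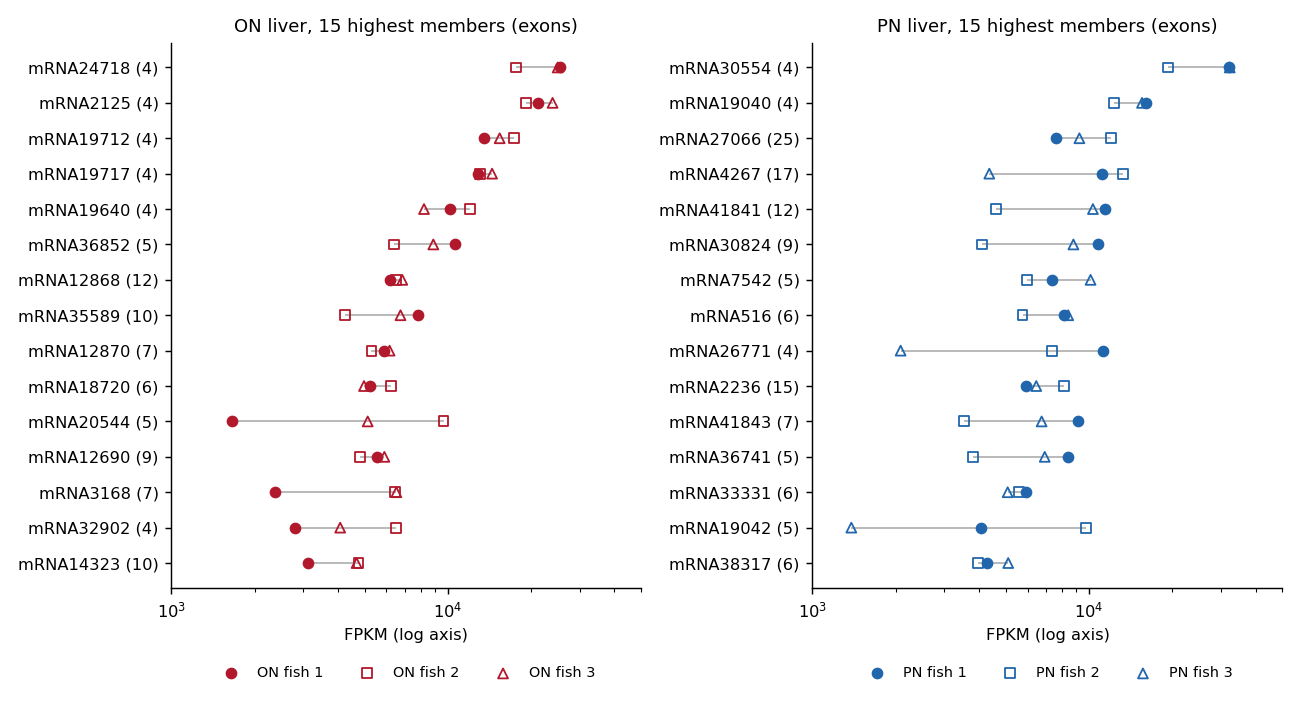
FPKM of the 15 members with the highest mean in ON (left) and in PN (right), on a log axis, with 1 symbol for each fish, a grey line from the lowest to the highest fish and the exon number in brackets. The 5 highest ON members have 4 exons each, and the fish of mRNA19717 lie between 12853 and 14448 FPKM while those of mRNA20544 lie between 1663 and 9646 FPKM.

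Members had fewer exons and much shorter gene models than the other transcripts. In ON the median exon number was 7 in members (quartiles 5 and 10) and 9 in the other transcripts (6 and 15). In PN it was 7 in members (5 and 10) and 10 in the other transcripts (6 and 15). Transcript length had a median of 1291 bases in ON members and 2800 bases in other ON transcripts, and of 1224 bases in PN members and 2592 bases in other PN transcripts. Genomic span had a median of 4450 bases in ON members and 10757 bases in other ON transcripts, and of 4323 bases in PN members and 10647 bases in other PN transcripts. Intron bases, the span less the exonic length, had a median of 3055 bases in ON members and 7523 in other ON transcripts, and of 2982 bases in PN members and 7656 in other PN transcripts. Members thus lay below the median of the other transcripts for length in 306 of 335 cases in ON (91.3%) and 329 of 365 in PN (90.1%). For span this held for 285 ON members (85.1%) and 321 PN members (87.9%), and for intron bases for 277 (82.7%) and 310 (84.9%).

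The size of these differences varied little with the fish used to choose, but the sets so chosen overlapped widely. As ratios of medians, members over other transcripts, exon number stood at 0.778 in ON and 0.70 in PN, length at 0.461 and 0.472, span at 0.414 and 0.406, and intron bases at 0.406 and 0.389. When members were chosen on 1 fish at a time, the length ratio was 0.499 ± 0.011 in ON and 0.512 ± 0.014 in PN. The span ratio was then 0.424 ± 0.010 in ON and 0.428 ± 0.003 in PN, and that of intron bases 0.429 ± 0.007 in ON and 0.414 ± 0.004 in PN (SD, n = 3 fish each, which share one transcript set). The sets chosen on fish 1, 2 and 3 held 385, 424 and 418 transcripts in ON, and each contained all 335 members. In PN they held 450, 453 and 468 transcripts, and each contained all 365 members. The small SD of the ratios therefore does not measure a spread among fish. The ratios are descriptions of the transcript sets, with no test over transcripts, since overlapping transcripts share exons and are not replicates.

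FPKM divides by transcript length, and the rule therefore uses length. A ranking that does not divide by length, chosen after seeing the data, took as many transcripts as there are members by their lowest aligned bases among the 3 fish. It shared 287 of the 335 ON members (85.7%) and 300 of the 365 PN members (82.2%). The ratios moved closer to 1 but stayed under it. Length then stood at 0.602 in ON and 0.629 in PN, span at 0.497 and 0.521, intron bases at 0.475 and 0.468, and exon number at 0.889 and 0.80.

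Exon and intron length differed as well as exon number, although the rule uses transcript length and thereby in part exon length. Exons averaged 165 bases in the median ON member and 262 bases in the median other ON transcript, and 154 bases in the median PN member and 237 bases in the median other PN transcript. Introns averaged 510 bases in the median ON member and 833 bases in the median other ON transcript, and 483 bases in the median PN member and 832 bases in the median other PN transcript. As both shrank together, the share of the span that was intron was nearly the same, at 72.8% in ON members and 73.4% in other ON transcripts. In PN it was 72.1% in members and 75.2% in other transcripts.

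Transcripts of like exon number were then set side by side, since short transcripts tend to have few exons. Members with 4 to 6 exons made up 49.3% of ON members (165) and 28.8% of other ON transcripts, and 49.0% of PN members (179) and 27.2% of other PN transcripts. Only 24 ON and 28 PN members had 15 to 39 exons, which was 7.16% and 7.67% of members, against 25.7% and 26.6% of the other transcripts. In each of the 4 bands of exon number and in both species, members had the shorter exons and the shorter introns. The mean-exon ratio was lowest with 4 to 6 exons, at 0.412 in ON and 0.439 in PN, and 0.740 and 0.735 with 15 to 39 exons. The mean-intron ratio lay between 0.55 and 0.64 in the ON bands and between 0.49 and 0.65 in the PN bands. Averaged over the bands with the members as weights, the ratios were 0.528 in ON and 0.570 in PN for length, 0.575 and 0.576 for span, and 0.610 and 0.589 for intron bases.

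**Figure D2:**
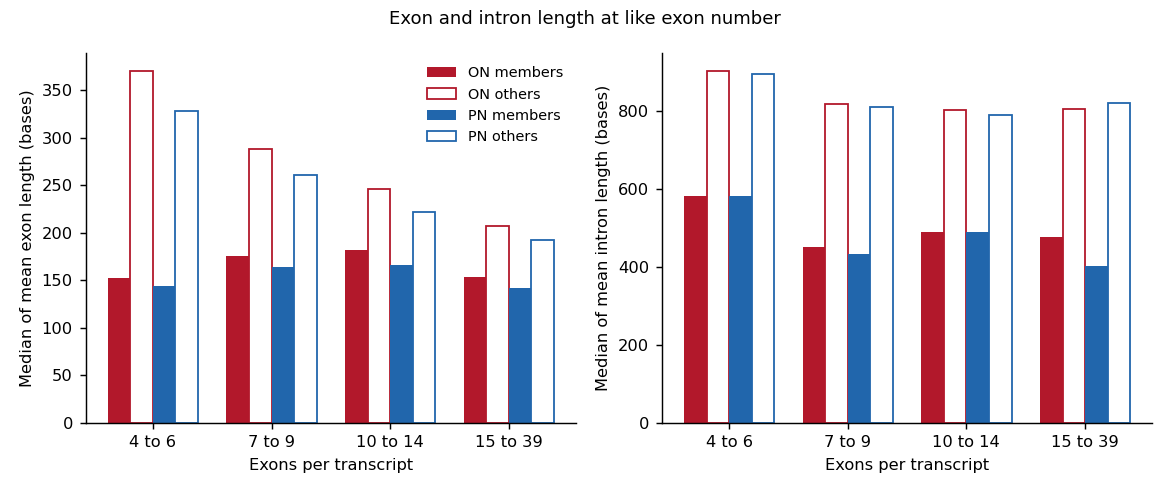
Median of the mean exon length (left) and of the mean intron length (right) in bases, for members (filled bars) and other transcripts (open bars) of ON (red) and PN (blue) in 4 bands of exon number. Members have the lower bar in every band of both panels, from 152 against 370 bases per exon with 4 to 6 exons in ON to 402 against 820 bases per intron with 15 to 39 exons in PN.

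Median span and mean intron length were lower in each higher band of abundance, here by the lowest FPKM of the 3 fish. Among ON transcripts the median span was 10488 bases at 1 to 10 FPKM (6856 transcripts), 7956 bases at 10 to 100 (1293), 4648 bases at 100 to 1000 (278) and 3257 bases at 1000 or more (57). In PN the same bands had 10221, 7880, 4506 and 3158 bases, over 7612, 1529, 302 and 63 transcripts. Mean intron length followed the same order, with medians of 774, 707, 548 and 336 bases in ON and 778, 700, 501 and 417 bases in PN. Below 1 FPKM the median span was 11317 bases in ON and 11571 bases in PN, close to the band above it. The quartiles of neighbouring bands overlapped throughout. Introns made up 63.1% of the span in the median ON transcript at 1000 FPKM or more and 73.4% at 100 to 1000 FPKM, while in PN the values were 70.8% and 72.4%.

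**Figure D3:**
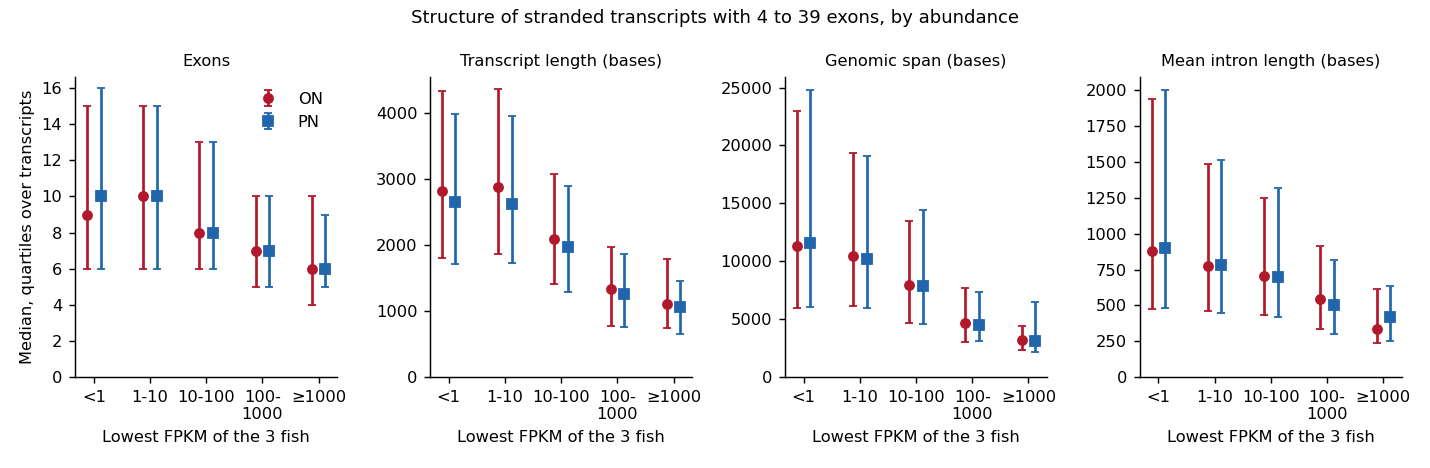
Median exon number, transcript length, genomic span and mean intron length (points) with quartiles (bars) over stranded transcripts with 4 to 39 exons, in 5 bands of the lowest FPKM of the 3 fish, for ON (red circles) and PN (blue squares). Medians are lowest at 1000 FPKM or more, where span is 3257 bases in ON and 3158 bases in PN.

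Against other transcripts that were themselves expressed, with at least 1 FPKM in all 3 fish, the gap remained. The 8149 such ON transcripts had a median length of 2747 bases and span of 9976 bases, and the 9141 PN transcripts had 2506 and 9784 bases. The ratio of members to these was 0.470 for length and 0.446 for span in ON, and 0.488 and 0.442 in PN. Very wide gene models were rare among members. A span over 20000 bases was found in 17 ON members (5.07%) and 6151 other ON transcripts (26.5%), and in 10 PN members (2.74%) and 5488 other PN transcripts (27.1%). Members with the minimum of 4 exons numbered 61 in ON (18.2%) and 56 in PN (15.3%), against 10.5% and 9.60% of the other transcripts.

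A few members were large. The widest ON member, mRNA3178 on NC_031981.1 from 31528926 to 31738657, has 27 exons over 209732 bases, with introns averaging 7877 bases. It had 436, 387 and 422 FPKM in ON fish 1, 2 and 3, a steady level. Its locus held 16 transcripts, of which 4 were members, several lying inside its span without sharing its ends. Counting 1 member per locus, the next widest in ON were mRNA3164, with 10 exons over 60467 bases at 1037, 1895 and 1109 FPKM, and mRNA24945, with 36 exons over 59027 bases at 271, 187 and 173 FPKM. In PN the widest was mRNA2236, on NW_005187535.1 from 1388376 to 1504121, with 15 exons over 115746 bases. It had 5931, 8098 and 6441 FPKM, and mRNA27066 lies within its span. Where gene models of one locus are nested in this way, the split of reads among them rests on the abundance estimate. Again with 1 member per locus, mRNA38144 and mRNA34020 followed in PN, with spans of 39739 and 37613 bases.

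The longest ON members, mRNA25194 with 11978 bases in 29 exons and mRNA25193 with 10295 bases in 26 exons, are neighbours on the minus strand of NC_031980.1. mRNA25194 had 411, 494 and 396 FPKM in ON fish 1, 2 and 3, and mRNA25193 had 1482, 2038 and 1332 FPKM, so that both were highest in fish 2. Introns make up 41.4% of the span in mRNA25194 and 29.8% in mRNA25193. The longest PN member, mRNA13898 on NW_005187442.1, has 10312 bases in 26 exons, and introns make up 29.9% of its span. It had 544, 250 and 407 FPKM in PN fish 1, 2 and 3. mRNA29071 followed, with 6255 bases in 25 exons at 468, 316 and 377 FPKM. In exon number, length and intron share, mRNA25193 and mRNA13898 are close, but whether they come from the same gene was not tested.

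At the other end, the narrowest ON members were mRNA31854 with a span of 867 bases, mRNA21774 with 878 bases and mRNA21264 with 895 bases. mRNA21264 had 1875, 2039 and 1958 FPKM in ON fish 1, 2 and 3, a range narrower than that of most members. The narrowest PN members were mRNA33836 with 749 bases, mRNA30895 with 764 bases and mRNA15294 with 818 bases. mRNA30895 had 1489, 674 and 869 FPKM in PN fish 1, 2 and 3, with fish 1 above the others.

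Members were spread over the genome and over both strands. In ON, 167 lay on the plus and 168 on the minus strand of 36 sequences, with at most 24 on 1 sequence. In PN, 180 lay on the plus and 185 on the minus strand of 191 sequences, with at most 9 on 1 sequence. Sequences with at least 50 stranded transcripts held 324 of the 335 ON members and 264 of the 365 PN members. Short sequences may cut off gene models and runs of neighbours, and mRNA14923 of PN starts at base 6 of its sequence. The 335 ON members fell into 308 loci, of which 23 held 2 or more members, and the 365 PN members into 332 loci, of which 27 did. In 225 ON and 223 PN loci the member was the only transcript. Such counts are given for members only, and whether members stand out in them from the other transcripts was not tested. Members held under 90% of the locus FPKM in 33 ON and 48 PN loci, and in the median locus of each species they held all of it.

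Most member loci had no member locus next to them. Members were 1.42% of the ON and 1.77% of the PN transcripts of the class, so most loci would stand alone in many arrangements. Whether members clustered was not tested. In ON, 278 member loci stood alone and 15 runs held 2 consecutive loci. In PN, 303 stood alone, 11 runs held 2 loci, 1 held 3 and 1 held 4. The run of 4 lies on the minus strand of NW_005187468.1 from 2685739 to 2705794 and covers 20056 bases. Its members are mRNA19038 at 1047, 524 and 578 FPKM, mRNA817 at 928, 915 and 4689 FPKM, mRNA19040 at the levels given above and mRNA19042 at 4082, 9737 and 1382 FPKM. The fish that was highest differed among these members: fish 1 for mRNA19038 and mRNA19040, fish 3 for mRNA817 and fish 2 for mRNA19042. The locus of mRNA817, however, held 3 transcripts and summed to 11027, 3189 and 4704 FPKM, so that it was highest in fish 1. The run of 3, on NW_005187447.1, has members on both strands. mRNA14923 had 183, 175 and 165 FPKM, mRNA14927 had 592, 537 and 632 FPKM, and mRNA14928 had 669, 258 and 276 FPKM, so that fish 1 stood apart in the last of them. All 15 ON runs have 2 loci, and the 2 named above are those with the highest summed FPKM, a choice made after their values were seen.

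Most members differed little among the fish of a species. The highest fish was 1.29-fold above the lowest in the median ON member (quartiles 1.18 and 1.58) and 1.39-fold in the median PN member (1.20 and 1.83). The fold was under 1.5 in 228 ON members (68.1%) and 208 PN members (57.0%). As the rule asks for 100 FPKM in every fish, it leaves out transcripts that dropped below that level in one fish, and these folds are a description. No fish was the highest for most members. Fish 1, 2 and 3 were highest for 92, 117 and 126 ON members and for 132, 73 and 160 PN members. Fish 2 was the lowest for 162 ON members and for 193 PN members. In that fish the median member stood at -0.061 in ON and -0.087 in PN, as log2 FPKM less its mean over the fish. Such ranks were not counted over the other transcripts, and the fish numbers pair nothing between the species.

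By a measure free of that limit, the abundant transcripts did not have a smaller spread than those at 10 to 100 FPKM in both species. Transcripts with at least 100 FPKM in 1 fish were compared between the other 2 fish, on the log2(FPKM + 1) scale. The added 1 shrinks differences at 1 to 10 FPKM more than at higher levels, so that band is not on an equal footing. The median absolute log2 difference was 0.28, 0.19 and 0.34 in ON with fish 1, 2 and 3 as the choosing fish (0.27 ± 0.08, SD, n = 3) and 0.33, 0.31 and 0.33 in PN (0.32 ± 0.01). At 10 to 100 FPKM it was 0.32, 0.35 and 0.35 in ON (0.34 ± 0.02) and 0.27, 0.34 and 0.32 in PN (0.31 ± 0.03). At 1 to 10 FPKM it was 0.31 ± 0.03 in ON and 0.30 ± 0.02 in PN (SD, n = 3 each). For each choosing fish in ON the spread was lower at 100 FPKM and above than at 10 to 100 FPKM. In PN this held for fish 2 only. The 3 values of a species share fish, so no test was run on them, and the ranges of the bands overlapped in both species.

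**Figure D4:**
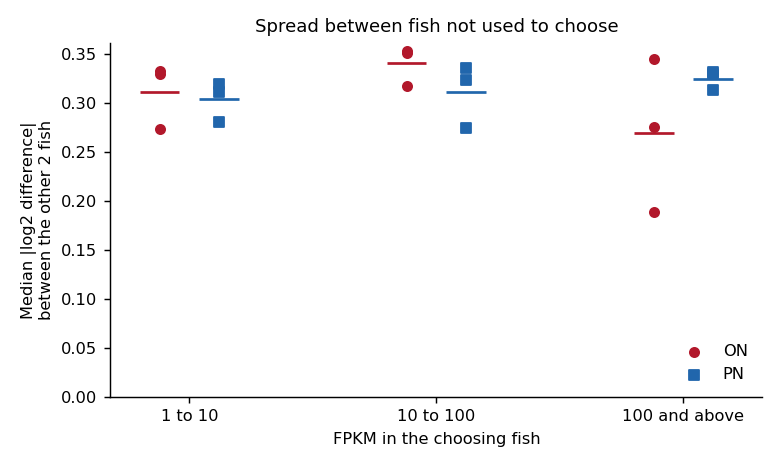
Median absolute difference of log2(FPKM + 1) between 2 fish, over transcripts chosen on the third fish, against the FPKM in the choosing fish, with 1 point for each choosing fish and a line at the mean, for ON (red circles) and PN (blue squares). At 100 FPKM and above the ON points run from 0.19 to 0.34 and the PN points from 0.31 to 0.33.

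The members that differed most among fish were few. The highest fish was at least 3-fold above the lowest in 21 of 335 ON members (6.27%), beside 8.12% of the 8484 ON transcripts of the class with at least 1 FPKM in all fish. In PN it was so in 21 of 365 members (5.75%), beside 7.56% of 9506 transcripts. With FPKM summed over each locus, 18 ON loci (5.84%) and 16 PN loci (4.82%) reached 3-fold.

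Most, but not all, of the ON members of that kind shared a direction. In 14 of the 21 (4.18% of all ON members), fish 2 was highest, fish 3 intermediate and fish 1 lowest, an order that 2.37% of the 8484 expressed ON transcripts took at 3-fold or more. The order was noticed in these values and got no test. Fish 2 was 3.09- to 7.12-fold above fish 1 (median 4.91), and fish 3 was 1.15- to 3.58-fold above fish 1 (median 2.60). In 12 of the 14 the whole locus also differed by at least 3-fold. The most abundant was mRNA20544, on NC_031976.1 from 31577309 to 31578553, with 5 exons in 1245 bases, at 1663, 9646 and 5131 FPKM in ON fish 1, 2 and 3. An exception was mRNA2121, at 1202, 8555 and 1378 FPKM, in the locus of mRNA2125, whose summed FPKM differed by only 1.26-fold. In the same locus mRNA2124, of 3 exons, had 14654, 2973 and 11744 FPKM, lowest in fish 2 where mRNA2121 was highest.

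Several of the 14 lie side by side or resemble each other. mRNA10899 and mRNA10900 are neighbours on the minus strand of NC_031970.1, from 18947118 to 18958787, with 8 exons each and 958 and 1024 exonic bases. mRNA10899 had 411, 2726 and 1200 FPKM in ON fish 1, 2 and 3, and mRNA10900 had 379, 2253 and 1106 FPKM, nearly the same profile. Another member of 8 exons, mRNA31662 on NC_031984.1 from 21436579 to 21438767, has 977 bases and had 351, 2448 and 1259 FPKM. On NC_031976.1, mRNA1181 and mRNA1182 overlap on the minus strand. mRNA1181 had 421, 2533 and 1071 FPKM, and mRNA1182, of 8 exons and 1024 bases, had 415, 1831 and 930 FPKM. mRNA19211, on the plus strand of the same sequence from 1246250 to 1247883, had 113, 528 and 299 FPKM. Reads shared between near-identical copies could be split among such members, and their part in the common profile was not tested.

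In PN the 21 members took all 6 orders of the fish, with 5 members at most in one order. In 15 of the 21 the whole locus also differed by at least 3-fold. The largest difference of either species was that of mRNA33836, on NW_005187641.1 from 54892 to 55640, with 4 exons and 387 exonic bases. It had 427, 4598 and 105 FPKM in PN fish 1, 2 and 3, a 43.7-fold range with fish 2 far above the others. Its locus of 5 transcripts summed to 796, 5593 and 161 FPKM. mRNA19042 (7.05-fold) and mRNA37861 (6.56-fold, at 659, 216 and 1415 FPKM) followed. In ON the largest was that of mRNA33616, at 2265, 212 and 1387 FPKM (10.7-fold), where fish 2 was the low fish. mRNA2121 (7.12-fold) and mRNA31662 (6.96-fold) came next.

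**Figure D5:**
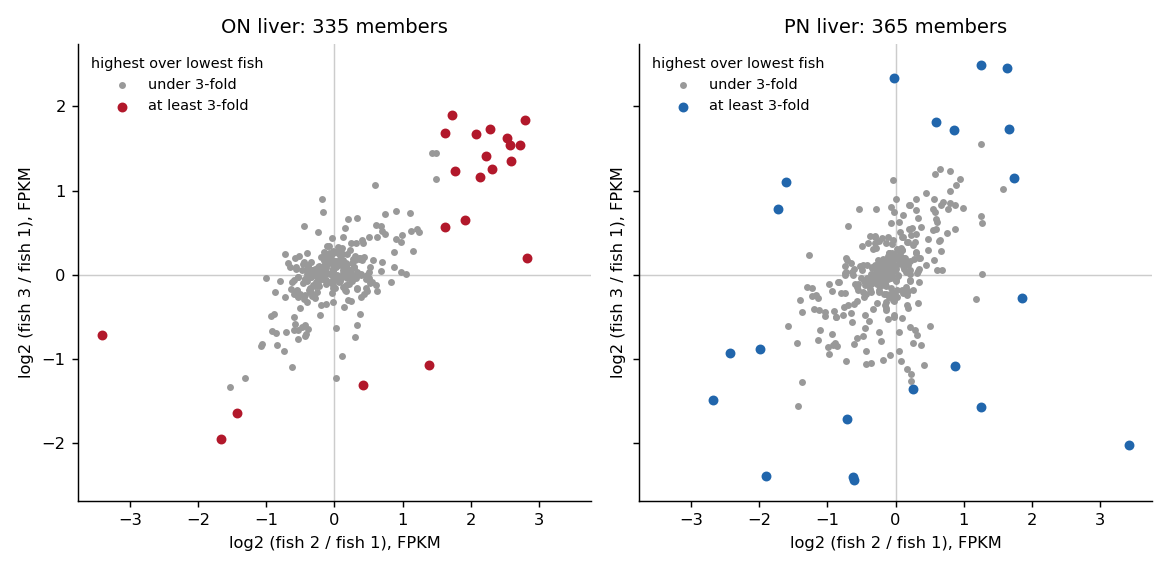
Log2 ratio of FPKM in fish 3 over fish 1 against that in fish 2 over fish 1, with 1 point for each of the 335 ON members (left) and 365 PN members (right), and members with a range of at least 3-fold in colour. In ON 14 of the 21 coloured points lie at the upper right, below the diagonal, while the 21 of PN are scattered around the centre.

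Transcripts close to the threshold lay within a few FPKM of each other in their lowest fish. Just inside it in ON lay mRNA1645 at 100, 219 and 144 FPKM, mRNA18051 at 210, 550 and 100 FPKM and mRNA22496 at 143, 101 and 109 FPKM in fish 1, 2 and 3. Just outside lay mRNA6283 at 130, 104 and 99.8 FPKM, mRNA4581 at 104, 169 and 99.6 FPKM and mRNA13997 at 116, 105 and 99.2 FPKM. In PN, mRNA10001 at 126, 114 and 100 FPKM, mRNA365 at 101, 152 and 357 FPKM and mRNA27701 at 168, 102 and 172 FPKM lay just inside. mRNA21266 at 108, 98.8 and 142 FPKM, mRNA9101 at 98.7, 139 and 136 FPKM and mRNA26167 at 98.6, 239 and 302 FPKM lay just outside. A further 11 ON and 13 PN transcripts reached 100 FPKM in one fish and were listed at 0 in another. They lay in 10 ON and 13 PN loci, and 8 of those ON loci and 11 of those PN loci had a summed FPKM of at least 100 in all 3 fish.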

How the data were processed

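Liver RNA of 3 ON and 3 PN males was analysed, 1 library per fish, with groups taken from the sample labels. The authors aligned the reads with HISAT2 2.1.0 and quantified transcripts with StringTie, assembling with the reference annotation, merging the libraries of a species and joining similar transcripts of a locus, steps that can alter exon number and length. The deposited values used here were FPKM and per-base coverage (signal) for each transcript. Their quotient was one constant per library, which was taken as its aligned bases and not checked against read counts. How reads with several alignments were counted was not stated.

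Span, intron bases, exon number and length were compared as ratios of medians, with no p over transcripts. Species were compared by a two-sided exact permutation test. Analyses used Python 3.11.15, numpy 2.4.6, pandas 2.3.3 and scipy 1.17.1, and the scripts were tested on simulated data (5000 transcripts). Named transcripts were, per species, the 5 highest in mean FPKM, the 3 widest and the 3 narrowest members (each 1 per locus), the 3 with the largest fold among fish, the 2 longest members, the 3 on each side of the threshold and the 2 longest runs of neighbours. Others were named after their values were seen. The members, the lists and the tests were chosen with earlier results of these data known. Thresholds, the transcripts set against members, loci, bands, scaling and left-out fish were varied.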

Additional observations from a re-analysis of the deposited data

How the results depend on the processing

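The ratios of members to other transcripts for exon number, length, span and intron bases stayed below 1 under every setting tried, and values are given for ON and then PN. At 50 FPKM in place of 100 there were 519 and 575 members, with ratios of 0.551 and 0.538 for length, 0.497 and 0.459 for span and 0.484 and 0.438 for intron bases. At 200 FPKM the ratios were 0.667 and 0.60 for exon number, 0.352 and 0.419 for length, 0.373 and 0.390 for span and 0.372 and 0.384 for intron bases. At 500 FPKM there were 132 and 153 members, with ratios of 0.667 and 0.60 for exon number, 0.293 and 0.345 for length, 0.330 and 0.343 for span and 0.342 and 0.344 for intron bases. Against the other transcripts with at least 1 FPKM the ratios were 0.70 and 0.778 for exon number, 0.470 and 0.488 for length, 0.446 and 0.442 for span and 0.443 and 0.435 for intron bases. With 1 transcript per locus they were 0.778 and 0.667 for exon number, 0.426 and 0.413 for span and 0.432 and 0.402 for intron bases. On sequences with at least 50 stranded transcripts the ratio was 0.70 for exon number in both species, and in PN 0.458 for length, 0.388 for span and 0.381 for intron bases. Within bands of exon number the ratios were 0.528 and 0.570 for length, 0.575 and 0.576 for span and 0.610 and 0.589 for intron bases. Ranked by aligned bases, an alternative chosen after seeing the data, they were 0.889 and 0.80 for exon number, 0.602 and 0.629 for length, 0.497 and 0.521 for span and 0.475 and 0.468 for intron bases. Leaving out each fish in turn gave 347 to 372 ON and 385 to 405 PN members. The ratios were then 0.465 to 0.490 and 0.477 to 0.490 for length, 0.414 to 0.415 and 0.409 to 0.425 for span, and 0.408 to 0.423 and 0.394 to 0.403 for intron bases.

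The spread between held-out PN fish, 0.32, was 0.34 at 50 FPKM, 0.28 at 200 FPKM, 0.29 with FPKM summed over each locus and 0.37 with differences centred on the median of all expressed transcripts. The held-out share of FPKM, ON minus PN, ran from -6.11 to 0.235 percentage points when 1 fish was left out, and it was 0.235 without ON fish 1. The species short of 1 fish then had its transcripts chosen on 1 fish only. The change of sign thus cannot be put down to ON fish 1 alone. The share again at 100 FPKM ran from -5.64 to 8.83 points, where by construction the same change of choice applies. It was -3.85, -5.64 and -5.48 without ON fish 1, 2 and 3. No such difference had an exact permutation p below 0.2, though the held-out values of a species share fish and are not independent. The share again at 100 FPKM restates the counts of the rule, so its tests cannot decide whether the species differ. With the replicate numbers taken as a block, the same differences of -3.38 and 1.89 points had exact p = 0.75 and p = 0.5, where 3 pairs cannot go below 0.25. The numbers mark different fish of 2 species and pair nothing, and no transcript was shared between the species to check it on. The coverage gave the equivalent of at least 527 read pairs to each member in each fish. Counting error is thus small beside the ranges among fish named, and 3 fish per species limit the comparison of the species.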

Other observations

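ON members often had a PN member of alike structure, meaning the same exon number and a length and span each within 10%. This held for 188 of 335 ON members (56.1%) and for 1380 of 8149 other ON transcripts with at least 1 FPKM in all fish (16.9%). By exon number, the shares of ON members and other ON transcripts were 67.3% and 26.7% with 4 to 6 exons, 61.0% and 22.0% with 7 to 9, 37.5% and 16.3% with 10 to 14, and 12.5% and 2.42% with 15 to 39. Members of both species are short, also at like exon number, which by itself raises the chance of a match. With 4 to 6 exons the median length was 776 bases in ON members and 767 in PN members, against 1842 in all other ON transcripts. Whether matched transcripts come from the same gene was not tested.

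A pair of members of like arrangement was found in each genome and was noticed after the values were seen. Whether the pairs are of the same genes, and how often such pairs occur, was not tested. On ON NC_031971.1, mRNA12868 (12 exons, plus strand, 6178 bases of span) had 6177, 6490 and 6842 FPKM in fish 1, 2 and 3. It is followed after 5573 bases by mRNA12870 (7 exons, minus strand, 8582 bases of span), at 5852, 5295 and 6156 FPKM. On PN NW_005188038.1, mRNA41841 (12 exons, plus strand, 6354 bases of span) is followed after 5878 bases by mRNA41843 (7 exons, minus strand, 7769 bases of span). mRNA41841 had 11382, 4614 and 10324 FPKM in PN fish 1, 2 and 3, and mRNA41843 had 9148, 3519 and 6737 FPKM. Fish 2 was the lowest for both PN transcripts, and the 3 ON fish were within a narrow range for both ON transcripts.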
